A study of Mus musculus with 12 samples.

Results

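The IL-6, oncostatin M and STAT3 axis was followed through 10 genes, chosen by symbol: the ligand genes Il6, Il11, Osm and Lif, the receptor genes Il6ra, Il6st, Il11ra1 and Osmr, the transcription factor gene Stat3 and the feedback inhibitor gene Socs3. They are 10 of 53801 genes in the count table. All 10 were present in the normalized table of the colon and 8 in that of the blood, where Il11 and Lif were absent. Total RNA-seq had been performed on colon and whole blood of young adult male wild-type C57BL/6 mice, with ulcerative colitis (UC) modelled by a chemical. The UC mice received 1.5% dextran sulfate sodium (DSS), a polymer that injures the gut lining, in the drinking water for 7 days and then plain water, the control mice received the same water without DSS, and all were killed on day 8. Each tissue has 3 libraries labelled UC (mice 1, 2 and 4) and 3 labelled control (mice 7, 8 and 9), and the 6 mice had been selected on a disease activity score. The DSS model is an acute chemical injury in a single inbred strain, and whole colon and whole blood both hold many cell types.

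IL-6 and IL-11 bind their own receptor chains (IL-6Rα and IL-11Rα), and oncostatin M (OSM) binds the OSM receptor chain, while the shared chain gp130, encoded by Il6st, carries the signal inward. LIF signals through gp130 paired with the LIF receptor. The JAK kinases bound to gp130 phosphorylate STAT3, which enters the nucleus and switches on target genes, among them Socs3, whose product binds gp130 and JAK and shuts the signal down. In the inflamed gut, IL-6 and IL-11 act on epithelium, fibroblasts and T cells, and OSM is made mainly by myeloid cells while its receptor is found mainly on stromal cells.

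Total counts lay between 69181049 and 103662306 for colon libraries and between 80867247 and 142536804 for blood libraries, where the 7SL RNA took between 35.9% and 65.4% of all counts. A count of 0 allowed a level of up to 3 counts, or 2.47 to 3.79 normalized counts in the colon libraries and 2.30 to 4.52 in the blood libraries, for counting error only. The libraries did not fall out by their disease labels. The colon libraries held Muc2 and Krt20 of the epithelium, the blood libraries held Alas2 of red cells and Ppbp of platelets at high counts, and Krt20 was 0 in every blood library, as the tissue field of the labels states. In the colon, neutrophil markers were high in mice 1 (labelled UC), 7 and 9 (labelled control). For this reason every value is given by library and disease groups are named as labelled. Whether the disease labels name the right libraries was not tested.

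The proximal promoters of Socs3 and Il6 are printed because Socs3 is the textbook STAT3 target of the axis and Il6 its best known ligand gene. They are the 250 bases upstream of the RefSeq start, from RefSeq on GRCm38.p6, written 5′ to 3′ in the direction of the gene. Capitals mark, in Socs3, a STAT motif (letters TTCNNNGAA) and, in Il6, an AP-1 motif (TGANTCA) followed by an NF-kB motif, all searched on both strands.
Socs3, chr11:117969367-117969616, minus strand: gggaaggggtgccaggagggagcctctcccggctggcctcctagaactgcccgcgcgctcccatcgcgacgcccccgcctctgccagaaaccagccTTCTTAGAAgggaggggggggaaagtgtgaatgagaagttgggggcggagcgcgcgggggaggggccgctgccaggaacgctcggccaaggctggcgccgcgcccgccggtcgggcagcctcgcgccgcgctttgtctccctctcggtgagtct
Il6, chr5:30012864-30013113, plus strand: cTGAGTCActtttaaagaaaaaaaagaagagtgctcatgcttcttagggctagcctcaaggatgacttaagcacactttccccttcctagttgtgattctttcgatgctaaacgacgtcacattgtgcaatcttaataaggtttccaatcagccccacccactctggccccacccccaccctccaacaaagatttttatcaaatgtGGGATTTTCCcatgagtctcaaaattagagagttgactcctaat
Windows were found for 9 of the 10 genes. The STAT motif was found in Socs3 alone among the 9, with its first base 154 bases before the start, and in 7.02% of 32851 promoters of the same length. The NF-kB motif was found in Il6 alone, 44 bases before the start, and in 4.11% of promoters. The AP-1 motif was found in Il6, Il11 and Lif, 249, 98 and 228 bases before the start, and in 6.75% of promoters. By the GENCODE annotation, the Socs3 window lies inside the gene (117966079 to 117970047), since its outermost start differs from the RefSeq start. The Il11 window with the AP-1 motif (4778142 to 4778391) likewise lies inside its gene (4772373 to 4782859). Such matches describe letters and not bound sites.

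Among the ligand genes of the colon, Il6, the gene of the pleiotropic cytokine of the acute phase, was 314.5 normalized counts in mouse 1 and 0 in mice 2 and 4, all labelled UC. It was 173.2 in mouse 7, 0 in mouse 8 and 1477 in mouse 9, all labelled control. Il6 was thus detected in mice 1, 7 and 9 and not detectable at this depth in mice 2, 4 and 8, and both labelled groups held libraries of each kind. Il6 lies on chromosome 5 (GRCm38, 30013114 to 30019981, plus strand).

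Il11, whose product acts on stromal and epithelial cells, was 459.4, 23.5 and 21.4 normalized counts in the colon of mice 1, 2 and 4. It was 116.3, 16.4 and 2425 in mice 7, 8 and 9. The highest library was 148 times the lowest, and the 3 highest were again mice 1, 7 and 9. Osm, the gene of oncostatin M, was 301.2, 26.1 and 19.8 in mice 1, 2 and 4 and 46.8, 7.56 and 658.7 in mice 7, 8 and 9. For Osm the highest library was 87.1 times the lowest, and mouse 7, the third highest, was 1.79 times mouse 2, the fourth. Lif, the gene of leukemia inhibitory factor, departed from this order. It was 400.7, 281.3 and 335.7 normalized counts in mice 1, 2 and 4 and 307.3, 259.7 and 1338 in mice 7, 8 and 9, so that only mouse 9 stood clear of the other libraries. Osm and Lif are neighbours on chromosome 11 (4236420 to 4241026 and 4257557 to 4272514, both on the plus strand).

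Among the receptor genes of the colon, Osmr, which encodes the OSM receptor chain, varied most. It was 2998, 929.2 and 799.3 normalized counts in mice 1, 2 and 4 and 5404, 714.7 and 7054 in mice 7, 8 and 9. Mice 1, 7 and 9 were the 3 highest, and the third highest library was 3.23 times the fourth. Il6st, encoding gp130, was 9946, 7125 and 8583 in mice 1, 2 and 4 and 14244, 7998 and 20832 in mice 7, 8 and 9. The same 3 libraries were highest, but the third highest was 1.16 times the fourth. Il6ra, encoding the IL-6 receptor chain, ranged from 862.8 to 1769 and was lowest in mouse 4 and highest in mouse 7, with mouse 9 at 956.5. Il11ra1, encoding the IL-11 receptor chain, ranged from 1230 to 1691, 1.37 times, and was the steadiest of the 10 genes. The counts of Il11ra1 are uncertain, since 46.3% of its 50-base stretches also occur in the near-identical genes Gm13305 and Il11ra2. Il6ra overlaps the antisense gene Gm42809 over 242 exonic bases, and the counting did not use strand.

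Stat3 itself was abundant in every colon library. It was 17321, 12424 and 11844 normalized counts in mice 1, 2 and 4 and 18471, 10343 and 21866 in mice 7, 8 and 9, a range of 2.11 times. Socs3 ranged over 40.6 times. It was 6641, 503.4 and 359.6 normalized counts in mice 1, 2 and 4 and 11260, 368.1 and 14614 in mice 7, 8 and 9. No colon library lay between 503.4 and 6641, and the third highest was 13.2 times the fourth. The labelled groups overlapped, because each held libraries of the high and of the low kind. Stat3 and Socs3 also lie on chromosome 11, the former at 100885098 to 100939540 and the latter at 117966079 to 117970047, both on the minus strand. Stat3 shares 72 exonic bases with Stat5a on the opposite strand.

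**Figure D1:**
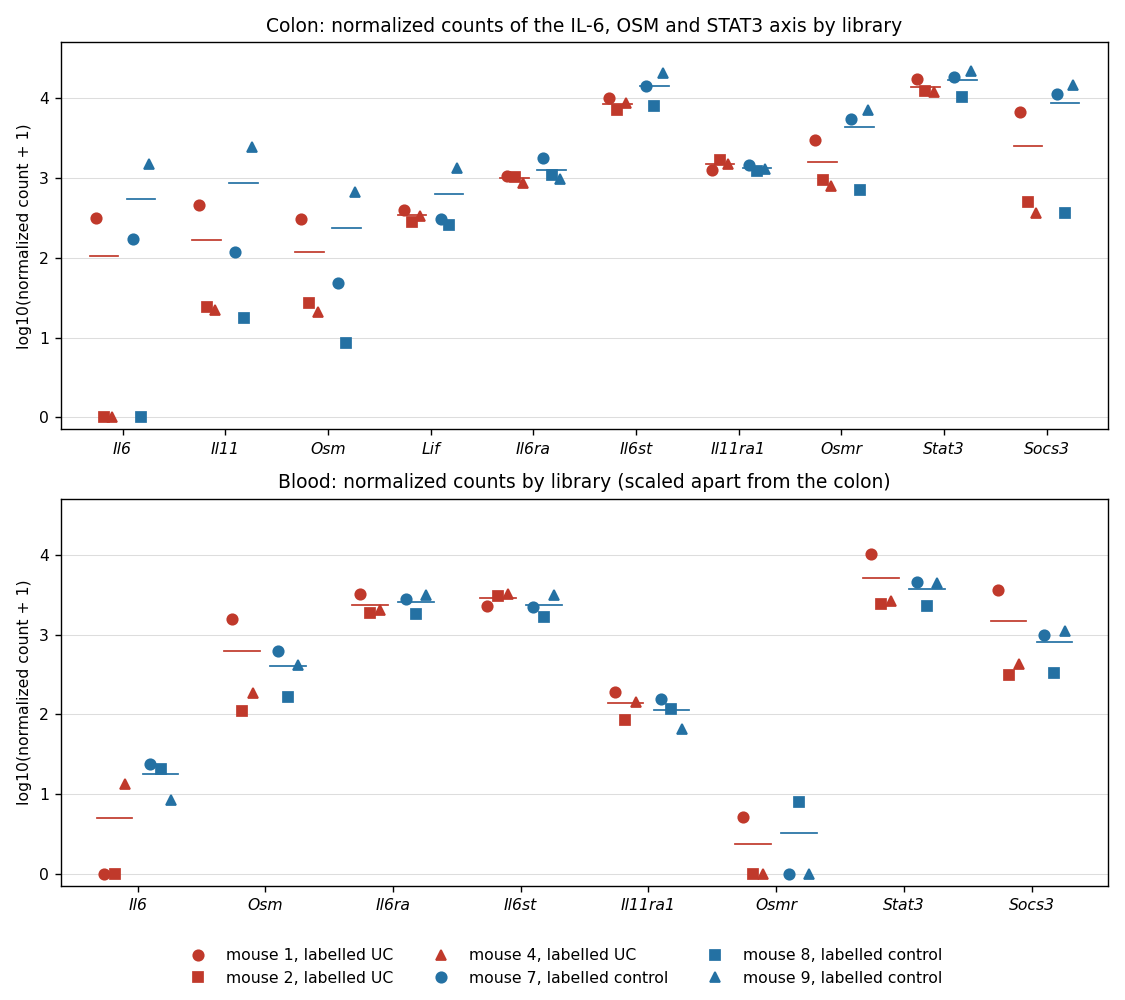
Normalized counts of the axis in each library, as log10(normalized count + 1), for the colon (top, 10 genes) and the blood (bottom, 8 genes). Each point is 1 library, coloured by its disease label and shaped by mouse, and each short line is the mean of 3 libraries. Socs3 in the colon splits into mice 1, 7 and 9, at 6641 to 14614, and mice 2, 4 and 8, at 359.6 to 503.4, while Il11ra1 stays between 1230 and 1691.

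Counted over the axis, the 3 highest colon libraries were mice 1, 7 and 9 for 7 of the 10 genes, namely Il6, Il11, Osm, Il6st, Osmr, Stat3 and Socs3. The same held for 18.3% of 22123 colon genes with a mean of at least 10 normalized counts. The labelled UC and control libraries were fully apart for 0 of the 10 genes, against 5.59% of those colon genes. Among the 3 high libraries the order differed by gene: Il6, Il11, Osm, Il6st, Osmr, Stat3 and Socs3 were highest in mouse 9, and mouse 7 exceeded mouse 1 for Il6st, Osmr, Stat3 and Socs3 but not for Il6, Il11 and Osm.

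In the blood, Osm was 1572, 109.9 and 185.7 normalized counts in mice 1, 2 and 4 and 617.9, 162.0 and 412.0 in mice 7, 8 and 9. The 3 highest libraries were mice 1, 7 and 9 as in the colon, but mouse 1 was now the highest and mouse 9 the lowest of the 3. Socs3 was 3658, 314.6 and 423.8 in mice 1, 2 and 4 and 988.5, 328.6 and 1120 in mice 7, 8 and 9, a range of 11.6 times. Stat3 was 10068, 2387 and 2657 in mice 1, 2 and 4 and 4489, 2307 and 4477 in mice 7, 8 and 9. Its range of 4.36 times in the blood was wider than the 2.11 times of the colon. That width rests on mouse 1, as the other blood libraries lay between 2307 and 4489. Mouse 1 was the highest library for all 3 genes.

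The receptor genes of the blood were steadier. Il6ra ranged from 1792 to 3217 normalized counts and was highest in mice 1, 9 and 7. Il6st ranged from 1641 to 3191 and was highest in mice 4, 9 and 2, so its order did not match that of the colon. Il11ra1 ranged from 64.5 to 190.6. Osmr gave 4 counts in mouse 1, 6 in mouse 8 and 0 in the other blood libraries, and so was at or near the limit of detection. Il11 and Lif had 0 counts in all 6 blood libraries. Il6 was 0, 0 and 12.3 normalized counts in mice 1, 2 and 4 and 23.0, 19.5 and 7.45 in mice 7, 8 and 9. With no more than 30 counts in any blood library, Il6 was highest in mouse 7 and at 0 in mice 1 and 2.

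For 4 of the 8 genes in the blood table, Il6ra, Osm, Stat3 and Socs3, the 3 highest libraries were mice 1, 7 and 9, as for 11.8% of 16370 blood genes. The labelled groups were fully apart for 0 of the 8, against 6.5% of blood genes.

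Which of these genes differ between UC and control mice is the comparison the design was made for. Significantly differentially expressed (SDE) genes had to reach an edgeR adjusted p of 0.05 or less with a log2FC beyond 1 in size, a log2FC below 0 meaning lower in libraries labelled UC. In the colon, 0 of the 10 genes were SDE (0.0045% of 22238 genes tested). The log2FC was below 0 for 9 genes and above 0 for Il11ra1, with a median of -0.97 against -0.01 over all genes. Osmr had a log2FC of -1.48 ± 0.874 (SE, n = 3 against 3) and Socs3 one of -1.81 ± 1.50. Il6st came nearest to a difference at -0.76 ± 0.344, with an unadjusted edgeR p of 0.067. The adjusted p was 0.9999 for each of the 10 genes, and 0 of them had an unadjusted p under 0.05. These values, and those of the blood, rest on labels by which mice 7 and 9, both high for most of these genes, are controls. The paper reports Il6 among its most upregulated genes of the UC mouse colon. It also reports Osm, Stat3 and Socs3 as upregulated in colon and blood of UC mice. Over all genes, the paper found many SDE genes and a clear separation of UC and control mice in both tissues. By label, 1 of 22238 colon genes was SDE here with edgeR and 6 with DESeq2, so the contrast is not limited to these genes. Why the labelled colon libraries run the other way for these genes was not tested. With each mouse left out in turn, the log2FC ran from -2.35 to -0.99 for Osmr, -4.34 to -1.25 for Socs3 and -1.04 to -0.41 for Il6st. Without mouse 1, the unadjusted edgeR p was under 0.05 for Il6, Osmr and Socs3, and for 795 of 22754 genes tested. Without mouse 8 it was so for Il6st and Osmr, and for 1942 of 23122 genes. In the main fit 313 of 22238 genes reached it. In a common fit of all 12 libraries 1 of the 10 did, and 415 of 23258 genes. But 0 of the 10 genes were SDE whichever mouse was left out, and the lowest of edgeR's adjusted p was 0.54.

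The means of the labelled groups show the spread behind these values. Socs3 averaged 2501 ± 3586 normalized counts (SD, n = 3) in colon libraries labelled UC and 8747 ± 7448 in those labelled control. Osm averaged 115.7 ± 160.7 and 237.7 ± 365.1. The SD exceeded the mean in both labelled groups for Osm, and in the UC group for Socs3, and for both genes the difference of the means was smaller than the larger SD. Mouse 9 decided the direction of 4 genes. Without it, the colon log2FC of Il6 was 0.23, of Il11 1.30, of Osm 2.05 and of Lif 0.23, and 5 of the 10 genes were above 0.

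In the blood, 7 of the genes passed the filter on low counts and 0 were SDE (0.0% of 16759 genes tested), with 0 of the 7 at an unadjusted p under 0.05. DESeq2 called 0 of the axis in either tissue as well. The log2FC was above 0 for 5 genes and below 0 for Il6 and Il6ra, with a median of 0.31 against 0.04 over all genes. Socs3 was 0.84 ± 0.905 (SE), Osm 0.64 ± 0.937 and Stat3 0.42 ± 0.566, each with an edgeR adjusted p of 0.9998. All 3 turned below 0 without mouse 1, at -1.13 for Socs3, -1.41 for Osm and -0.57 for Stat3. In that fit 1 of the 7 genes had an unadjusted edgeR p under 0.05, and 819 of 17444 genes tested. Without mouse 4 it was likewise 1 of the 7, and 653 of 17346 genes. With only library size as scaling, the median of all blood genes moved from 0.04 to -0.27 and Stat3 from 0.42 to -0.11.

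**Figure D2:**
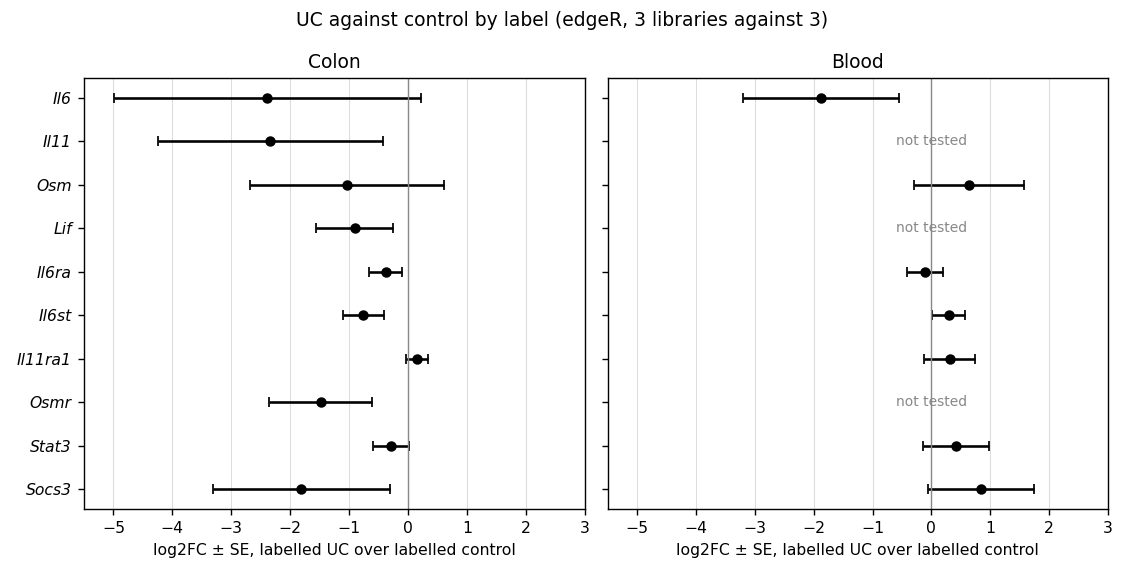
Log2FC of the 10 genes between libraries labelled UC and labelled control, with SE bars from edgeR, in the colon (left) and the blood (right), n = 3 against 3. In the colon 9 of 10 values lie below 0 and in the blood 5 of 7 lie above 0, and the bars are widest for Il6, Il11, Osm and Socs3, whose libraries differ most within a label.

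Whether the effect of UC was unequal in colon and blood was asked with an interaction term fitted to the 12 libraries. It was called for 0 of the 10 genes (0.0043% of 23258 genes tested). The interaction was below 0, the direction of lower in colon than in blood, for all 10, and above 0 for 45.6% of all genes tested. Il6st stood at -1.05 ± 0.483 (SE) and Socs3 at -2.67 ± 1.96. The interaction had an unadjusted edgeR p under 0.05 for 0 of the 10, beside 793 of 23258 genes tested. It was so for 2 of the 10 without mouse 1 (1098 of 23925 genes) and for 1 without mouse 8 (1261 of 24064). With mouse number as a replicate block it was so for 1 (466 of 23258). Il11ra1, Osmr and Stat3 turned above 0 without mouse 1, Il6 without mouse 4, and without mouse 9 so did Il6, Il11, Il11ra1, Osm, Osmr and Lif. Since Il11 and Lif had 0 counts in the blood, their interaction only repeats the sign of their colon log2FC and has no usable error. That of Osmr rests on 10 counts in all in the blood.

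Set against the level of its transcription factor within each library, a ratio that no scaling between libraries can change, Socs3 again set mice 1, 7 and 9 apart in the colon. Counts per kb of exon of Socs3 per Stat3 were 1.26, 0.134 and 0.100 in the colon of mice 1, 2 and 4 and 2.01, 0.117 and 2.20 in mice 7, 8 and 9. In the blood they were 1.20, 0.434 and 0.526 in mice 1, 2 and 4 and 0.726, 0.469 and 0.825 in mice 7, 8 and 9. In both tissues mice 1, 7 and 9 had the 3 highest ratios, and the spread was narrower in the blood. The ratio of Osmr to Il6st, the 2 chains of the OSM receptor, was 0.276, 0.119 and 0.0853 in the colon of mice 1, 2 and 4 and 0.348, 0.0819 and 0.310 in mice 7, 8 and 9. By RNA, Osmr was thus the scarcer of the 2 in every colon library, and less so in mice 1, 7 and 9. Protein of the chains was not measured.

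**Figure D3:**
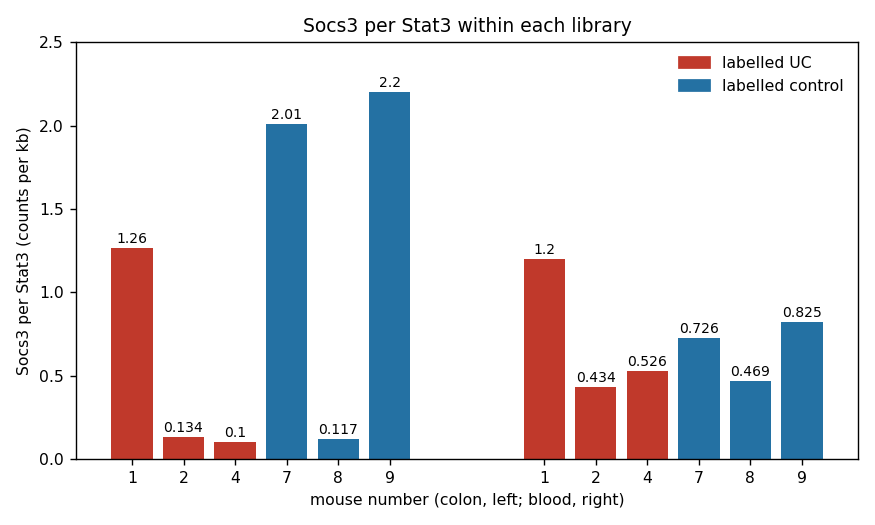
Socs3 per Stat3 within each library, as a ratio of counts per kb of exon, for the colon (left 6 bars) and the blood (right 6 bars), coloured by disease label, 1 bar per library. The colon bars of mice 1, 7 and 9 stand at 1.26 to 2.20 and those of mice 2, 4 and 8 at 0.100 to 0.134, while the blood bars run from 0.434 to 1.20.

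Colon and blood were then compared, with both tissues scaled together. The ligand genes Il11 and Lif and the receptor genes Osmr and Il11ra1 were higher in the colon, and Osm and Il6ra were higher in the blood. These 6 of the 10 genes were SDE, as were 58.5% of 23258 genes tested (37.7% higher and 20.8% lower in the colon), so the count is near the background. Every colon library lay above every blood library for Il11, Lif, Osmr and Il11ra1 (34.3% of genes tested), and below every blood library for Il6ra (19.2%). The kits and the RNA removal step differed between the tissues and cannot be told apart from the tissue. The median log2FC of all genes was 0.46 on the scale used, and each log2FC is to be read against it.

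Osm was higher in the blood in 6 of 6 mice, at 9.33 ± 10.2 CPM (counts scaled to the library's total after TMM correction, SD, n = 6) against 0.98 ± 1.45 in the colon. The log2FC was -3.31 ± 1.13 (SE, edgeR's adjusted p = 0.0216). Without mouse 7 edgeR's adjusted p was 0.0843, and with only library size as scaling it was 0.319 at a log2FC of -1.10, when the median of all genes was 2.57. Il6ra was likewise higher in the blood in 6 of 6 mice, at 44.8 ± 12.2 CPM against 6.30 ± 1.92. Its log2FC was -2.84 ± 0.240 (edgeR's adjusted p = 1.67e-06) and fell short of the threshold at -0.75 with only library size as scaling. Both directions were the same under that scaling.

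Osmr was detected in all 6 colon libraries, at 16.7 ± 15.2 CPM, and gave 10 counts in all in the 6 blood libraries. Its log2FC was 8.89 ± 1.03 (edgeR's adjusted p = 1.79e-05). Il11 and Lif were at least 51.2-fold and at least 48.9-fold higher in the colon, taking 3 counts per blood library as the limit. Without mouse 9, the highest colon library for both, these were at least 12.4-fold and at least 30.7-fold. Il11ra1 was 7.78 ± 0.932 CPM in the colon and 2.28 ± 0.869 in the blood (log2FC 1.78 ± 0.260, edgeR's adjusted p = 1.05e-04), higher in the colon in 6 of 6 mice. The gene of oncostatin M was thus the more abundant in blood RNA and the gene of its receptor chain in colon RNA.

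The remaining 4 genes were not SDE between the tissues. Stat3 was 85.5 ± 25.7 CPM in the colon and 80.2 ± 54.4 in the blood, higher in the colon in 5 of 6 mice. Socs3 was 31.5 ± 35.0 and 20.8 ± 23.5, higher in the colon in 2 of 6 mice. Il6st was 63.7 ± 29.4 and 46.8 ± 11.2, higher in the colon in 4 of 6. Il6 averaged 1.82 ± 3.20 in the former and 0.189 ± 0.178 in the latter, with colon above blood in mice 1, 7 and 9. With only library size as scaling, all 4 passed the threshold as higher in the colon, with a log2FC of 5.20 for Il6, 2.47 for Il6st, 2.24 for Stat3 and 2.53 for Socs3, against a median of 2.57 over all genes. Relative to the median of all genes, the scaling made little difference. Il6st stood at -0.06 with TMM and -0.10 with library size only, Socs3 at -0.07 and -0.04, Stat3 at -0.36 and -0.32, and Il6 at 2.60 and 2.64. On the same footing Osm stood at -3.77 and -3.67 and Il6ra at -3.30 and -3.32.

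Per kb of exon, the order of mean levels in the colon was Socs3 (10.9 CPM per kb), Stat3 (8.97), Il6st (5.74), Il11ra1 (1.74), Osmr (1.38), Il11 (1.36), Il6 (0.750), Il6ra (0.729), Lif (0.621) and Osm (0.431). In the blood it was Stat3 (8.41), Socs3 (7.20), Il6ra (5.18), Il6st (4.22), Osm (4.11), Il11ra1 (0.510), Il6 (0.0780) and Osmr (0.00275), with Il11 and Lif at 0. Neighbours in these orders overlapped between libraries except Il6st and Il11ra1 in the colon and, in the blood, Osm and Il11ra1, and Il11ra1 and Il6. In the colon Stat3 ranged from 6.08 to 12.7 CPM per kb and Socs3 from 0.678 to 28.0, so their places are not apart. In the blood Il6ra, at 3.70 to 6.81, and Il6st, at 2.64 to 5.23, overlapped as well, whereas in the colon Il6ra stayed at 0.544 to 1.17 and below Il6st at 3.50 to 10.4.

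**Figure D4:**
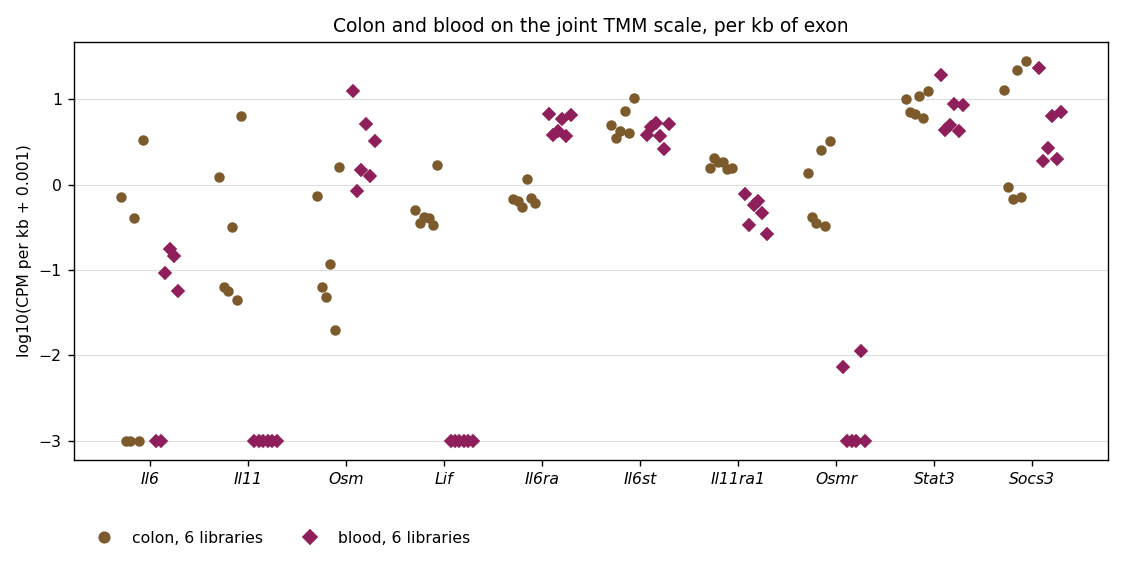
Levels of the 10 genes in 6 colon and 6 blood libraries on the joint TMM scale, as log10(CPM per kb of exon + 0.001), so that a library with 0 counts sits at the bottom. Each point is 1 library, in order of mouse number from left to right. Il11 and Lif are at the bottom in all 6 blood libraries, Osmr in 4 of 6, and Il6ra lies higher in every blood than in every colon library.

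The wider pathway was read from lists of gp130 ligands, gp130 receptors, JAK-STAT components, SOCS proteins with other inhibitors, STAT3 target genes and stromal genes that OSM induces. Between the labelled groups, 0 genes of these lists were SDE in either tissue. An unadjusted edgeR p under 0.05 was reached in the colon by Ebi3, encoding a subunit of IL-27 (log2FC -1.87 ± 0.699, SE), and Cebpb, a transcription factor and STAT3 target (-1.61 ± 0.589), both lower in libraries labelled UC and named after their values were seen, and by 0 genes of the lists in the blood. Of 9 ligand genes tested in the colon, 8 had a log2FC below 0 (median -0.91), and of 6 tested in the blood 4 were above 0 (median 0.17). Of 8 receptor genes in the colon, 5 were below 0 (median -0.30), and the JAK-STAT list had 8 of 9 below 0 (median -0.17). The SOCS list had 7 of 12 below 0 in the colon (median -0.06) and the STAT3 target list 17 of 22 (median -0.48). All 12 of the stromal list were below 0 (median -2.16), beside a median of -0.01 over all colon genes. The stromal list shares Lif and Il11 with the axis, and Icam1 and Timp1 with the STAT3 target list. The ligand list holds Il6, Il11, Osm and Lif, and the receptor list Il6ra, Il6st, Il11ra1 and Osmr. Stat3 is in the JAK-STAT list and Socs3 in the SOCS list. Without mouse 9, 8 of 12 stromal genes were below 0 (median -0.51), 4 of 9 ligand genes (median 0.23) and 15 of 22 STAT3 targets (median -0.22). Without mouse 1, all 12 stromal genes (median -4.40) and 18 of 22 STAT3 targets (median -1.06) were below 0. Of these lists, 5 and 9 genes had an unadjusted edgeR p under 0.05 with 0 SDE. In that fit 795 of 22754 colon genes tested had such a p. In the blood, 2 of 6 ligand genes were above 0 without mouse 1 (median -0.92). These values for the lists were chosen after seeing the data.

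By library, the 3 highest colon values were those of mice 1, 7 and 9 for 11 of 12 stromal genes, 11 of 22 STAT3 targets, 6 of 10 ligand genes and 5 of 8 receptor genes. They were so for 3 of 9 JAK-STAT genes and 2 of 12 SOCS and inhibitor genes, beside 18.3% of all colon genes. These counts include the members of the axis and genes shared between lists, so they partly repeat the values above. The most variable STAT3 targets of the colon were Reg3b, an antimicrobial lectin of the epithelium, and Saa3, an acute phase protein. Reg3b was 985376, 7.84 and 0 normalized counts in mice 1, 2 and 4 and 108204, 17.6 and 5504 in mice 7, 8 and 9. Saa3 was 4701 in mouse 1, 3256 in mouse 7 and 26328 in mouse 9 and 0 in mice 2, 4 and 8. The same mice were high for both genes, but mouse 1 led for Reg3b and mouse 9 for Saa3. The steadiest STAT3 target was Fosl2, an AP-1 subunit, at 23115 to 44287.

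Of the stromal list, Mmp3, a matrix protease, was 4778, 124.5 and 108.1 in mice 1, 2 and 4 and 2879, 49.2 and 33234 in mice 7, 8 and 9. Cxcl9, a chemokine for T cells, was 704.7, 17.4 and 75.9 in mice 1, 2 and 4 and 1544, 25.2 and 8817 in mice 7, 8 and 9. Both, like Osmr, had their 3 highest libraries in mice 1, 7 and 9. Socs1, a second feedback inhibitor of JAK signalling, was 457.5, 107.1 and 202.9 in mice 1, 2 and 4 and 986.4, 137.4 and 1370 in mice 7, 8 and 9. Socs7 stayed between 2440 and 2836. Of the JAK-STAT list, the phosphatase gene Ptpn11 was the steadiest, between 8323 and 9506. Among receptor genes, Il31ra, whose product pairs with the OSM receptor chain to bind IL-31, was low at 58.7, 0.871 and 4.95 in mice 1, 2 and 4 and 20.2, 2.52 and 27.9 in mice 7, 8 and 9. Cntfr, the receptor of ciliary neurotrophic factor, ranged from 7.56 in mouse 8 to 115.1 in mouse 7. Among ligand genes, Cntf ranged from 0 in mouse 4 to 190.4 in mouse 1, but 78.9% of its exonic bases lie in Zfp91 on the same strand, so its counts are uncertain. Ctf1, the cardiotrophin gene, was the steadiest ligand gene at 59.4 to 133.2.

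**Figure D5:**
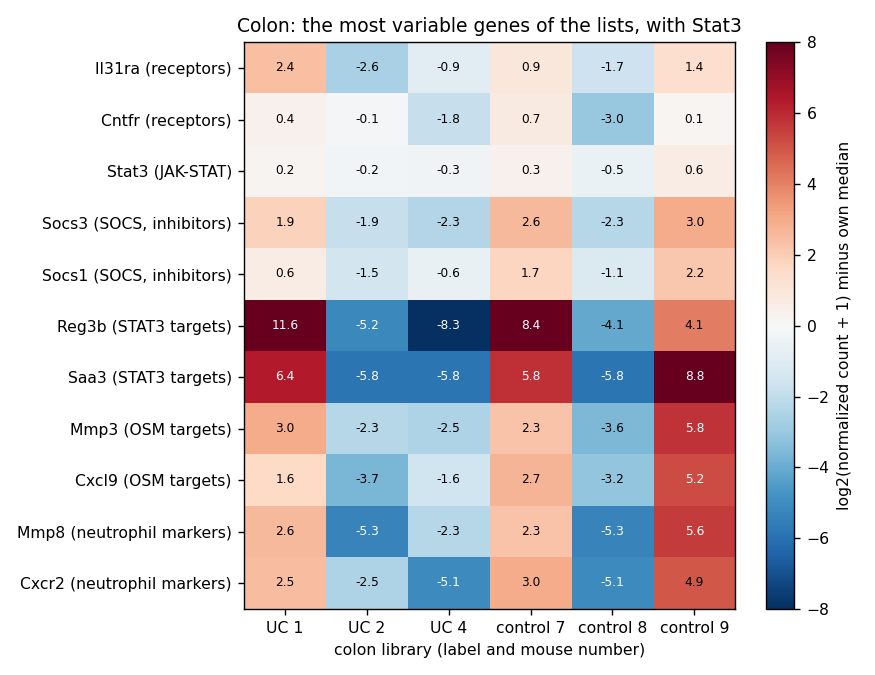
The 2 most variable genes of the receptor, SOCS, STAT3 target, stromal (OSM target) and neutrophil lists, with Stat3, in the 6 colon libraries, as log2(normalized count + 1) minus the gene's own median. The colour scale ends at 8 in each direction and the numbers give each value. Mice 1, 7 and 9 are above the median for all 11 genes drawn and mice 2, 4 and 8 below it, from Stat3 (-0.5 to 0.6) to Reg3b (-8.3 to 11.6). The ligand list, whose 2 most variable genes were Il6 and Cntf, is not drawn. Cntf was higher in mouse 8 (146.2 normalized counts) than in mouse 9 (75.6).

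In the blood, the most variable STAT3 targets were Saa3 and Lrg1, a secreted glycoprotein of neutrophils and liver. Lrg1 was 12252, 708.9 and 652.1 normalized counts in mice 1, 2 and 4 and 2917, 424.0 and 4046 in mice 7, 8 and 9. Saa3 was 609.7 in mouse 1, 63.6 in mouse 7 and 81.1 in mouse 9 and 0 in the other mice. Both were led by mouse 1, as were Osm, Stat3 and Socs3. Of the JAK-STAT list, Stat5b ranged from 2306 to 6346 and was highest in mouse 1. Of the other lists, Lifr ranged from 177.6 to 812.9, Il27ra from 1342 to 1863, Cntf from 50.5 to 100.1, Socs2 from 0 to 85.3, Socs5 from 271.7 to 411.6 and Icam1 from 455.0 to 879.8. The 3 highest libraries were mice 1, 7 and 9 for 8 of 19 STAT3 targets, 4 of 9 JAK-STAT genes, 2 of 6 ligand genes, 1 of 6 receptor genes and 1 of 12 SOCS and inhibitor genes, beside 11.8% of all blood genes.

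Between the tissues, the blood was higher for Il27 (log2FC -3.95 ± 1.07, SE), a ligand gene of myeloid cells, its receptor gene Il27ra (-5.49 ± 0.423) and Il31ra (-2.99 ± 0.824). It was also higher for the JAK-STAT gene Stat5b (-2.32 ± 0.235), the inhibitor genes Ptpn6 (-3.27 ± 0.194) and Pias1 (-2.23 ± 0.183), and the STAT3 targets Bcl2l1 (-3.87 ± 0.441) and Pim1 (-3.28 ± 0.444). The colon was higher for Cish (1.58 ± 0.413) and Socs2 (5.20 ± 0.708), both targets of STAT5, and for Cntfr, Reg3b, Reg3g, Pdpn and Serpina3n, of which the blood libraries held no counts. All of these were SDE by edgeR. By list, 6 of 9 JAK-STAT genes were SDE and lower in the colon and 0 were higher, and 11 of 12 stromal genes were SDE and higher in the colon and 0 were lower, beside 20.8% of all genes tested lower and 37.7% higher. With only library size as scaling, 5 of 9 JAK-STAT genes were SDE and higher and 0 lower, so their direction turned, with a median of 1.09 against 2.57 over all genes, while all 12 stromal genes were SDE and higher.

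Markers of some cell types, but not of all, moved with these genes, and their part in the results was not tested. In bulk RNA, more cells of a type and more RNA per cell cannot be told apart. All 11 neutrophil markers measured at a mean of at least 10 normalized counts in the colon, and 11 of 12 in the blood, had their 3 highest libraries in mice 1, 7 and 9. The summed level of the 12 neutrophil markers ran from 7539 to 35001 in colon libraries labelled UC and from 17821 to 69116 in those labelled control, and 0 of the 12 were at 0 in all libraries. Ly6g alone gave 7350 to 25479 of it, and the 11 other markers, a choice made after the values were seen, summed to 13507, 189.0 and 240.0 in mice 1, 2 and 4 and 5785, 365.5 and 43637 in mice 7, 8 and 9. In the blood the 12 summed to 494561, 56535 and 50303 in mice 1, 2 and 4 and 159973, 41963 and 365545 in mice 7, 8 and 9. By these sums neutrophil markers were highest in the colon of mouse 9 and in the blood of mouse 1, the same libraries in which Osm was highest. They were not alone in this. Monocyte and macrophage, B cell, fibroblast, endothelial and platelet sums also peaked in the colon of mouse 9. Endothelial, red cell and platelet sums also peaked in the blood of mouse 1. The sums of the other lists peaked elsewhere. S100a8 in the blood was higher in mouse 9 (101913) than in mouse 1 (88578).

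The 10 monocyte and macrophage markers had mice 1, 7 and 9 on top for 10 of 10 in the colon and 4 of 10 in the blood, and summed to 17304 to 68667 in the colon. T cell markers did so for 7 of 8 in the colon and 0 of 8 in the blood, and B cell markers for 0 of 6 in either tissue. Fibroblast markers did so for 4 of 8 in the colon, where their sum ranged from 87042 in mouse 8 to 246481 in mouse 9, and endothelial markers for 1 of 6. Smooth muscle markers did so for 0 of 6, with sums of 128101 in mouse 9 to 534675 in mouse 2, and epithelial markers for 1 of 9. Red cell and platelet markers did so for 0 of 5 and 0 of 4 in the colon.

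The genes whose profile over the 6 libraries lay nearest to those of Il6, Osm, Stat3 and Socs3 were found by the root mean square difference of log2(normalized count + 1) around each gene's own mean, among 15842 colon and 11105 blood genes with a mean of at least 100. In the colon, the 3 nearest to Socs3 were Trim30b (0.260), Ddah1 (0.309) and Chrdl2 (0.338). Trim30b was 472.6, 40.1 and 38.8 normalized counts in mice 1, 2 and 4 and 730.9, 27.7 and 950.2 in mice 7, 8 and 9. The 3 nearest to Stat3 were Syt11 (0.0561), Cysltr1, a leukotriene receptor (0.0630), and B4galt2 (0.0706). Stat3 itself varied by 0.388 on this measure and Socs3 by 2.36, so their distances are not on an equal footing. The 3 nearest to Osm were Wfdc18 (0.615), Il11 (0.691) and Msln, encoding mesothelin (0.720). The 3 nearest to Il6 were Myot (0.618), Krt90 (0.739) and Marco, a scavenger receptor of macrophages (0.744). With a pseudocount of 10 in place of 1, none of the 3 remained for Il6 and 1 of 3 for Osm (Msln, and not Il11) and Socs3, whereas all 3 remained for Stat3. On log2 CPM, 2 of 3 remained for Il6 and all 3 for Osm, Stat3 and Socs3.

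In the blood, the 3 nearest to Osm were Slc16a3, the lactate exporter MCT4 (0.230), Fosl2 (0.273) and Socs3 (0.276). The 3 nearest to Socs3 were Flot2 (0.133), Sbno2 (0.142) and Rasgrp4 (0.170), and those nearest to Stat3 were Gm3791 (0.0654), Slc11a1, a metal transporter of phagocytes (0.0717), and Msrb1 (0.0831). Flot2 was 2232, 194.2 and 264.3 normalized counts in mice 1, 2 and 4 and 487.0, 170.1 and 666.9 in mice 7, 8 and 9. All 3 genes named for each member stayed the same with a pseudocount of 10 and on log2 CPM. Il6, with a mean under 100 in the blood, was not searched there. Likeness over 6 libraries is a description of these profiles only.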

How the data were processed

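Total RNA-seq of colon and blood gave 12 libraries in 4 labelled groups of 3. Groups were taken from the disease and tissue fields of the labels, and mouse numbers from the titles. A second field of the labels names the opposite tissue in all 12 samples. The deposited normalized tables list the libraries in the order mouse 1, 7, 9, 2, 4, 8, and no group was taken from that order. Per the study's methods, the authors cleaned the reads of adapters and ribosomal RNA, aligned them by STAR to GRCm38 and estimated expression by StringTie 1.3.4c from Ensembl 92 models, with no strand set. The deposited counts are whole numbers that the authors derived from transcript coverage. The deposited normalized counts are a signal scale, the authors' count divided by 1 factor per library (0.791 to 1.21 in the colon, 0.664 to 1.31 in the blood), scaled apart for each tissue. Symbols came from the deposited tables, and coordinates from GENCODE vM21 (GRCm38).

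Counts were tested with edgeR 4.0.16 in R 4.3.3 (TMM, filterByExpr, glmQLFit, glmQLFTest), each tissue alone for UC against control, and all 12 libraries together for colon against blood and for the interaction, with Benjamini-Hochberg adjustment over all genes tested. SE was taken as log2FC over the root of F. The steps were tested on simulated data whose libraries differed less within a group than the libraries here. That test therefore does not show how many true differences could be found in these data. CPM values use TMM factors over all 12 libraries. Labels do not say how the samples of a group were raised or whether they were handled together, so p-values measure the spread between these samples. Totals above give the depth, and intervals cover counting error only. All 10 members and, per list and tissue, the 2 most and the 1 least variable genes with a mean of at least 10 normalized counts are named, and between tissues the 2 largest SDE changes in each direction. The members and lists were chosen with earlier results of these data known. Some genes of the lists are not reported here by name. Alternatives were DESeq2 1.42.0, limma-voom (limma 3.58.1) and robust dispersion as tests, RLE and plain library size as scalings, no filter or a minimum mean of 10 counts, a common fit of all 12 libraries, a block on mouse number, and each mouse left out. The study took both tissues from the same 6 mice. Deviations from the group means correlated between same-numbered libraries with r from 0.0073 to 0.233 across 15802 genes, positive in all 6 and over 0.1 in 3, genes not being independent replicates. Libraries of different numbers were not correlated, so these values cannot show whether the tissues are paired.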

Additional observations from a re-analysis of the deposited data

How the results depend on the processing

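Of the values recomputed, 492 for single genes kept their direction and their side of the threshold, 29 turned, 3 lost a call and 4 gained one, while 96 counts stayed within 1.5 times and 16 did not. Colon against blood with library size only, 8 rather than 6 members and 19644 rather than 13604 genes were called. The count of SDE genes among the 10 members was 0 in UC against control under all of them, but the count over all genes moved: in the colon from 1 to 6 with DESeq2 and 0 with limma-voom, in the blood from 0 to 6 with DESeq2 and 1 with library size only, and in the interaction from 1 to 19 with DESeq2 and 0 with the replicate block. With each mouse left out it ran from 0 to 0 in the colon, 0 to 3 in the blood and 1 to 2 in the interaction.

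With library size only, the blood log2FC of Il6st was -0.11 and that of Stat3 -0.11, and the interaction was 0.20 for Il6ra and 0.15 for Il11ra1. With limma-voom, the blood log2FC of Osm was -0.12 and the colon against blood log2FC was -0.17 for Il6 and -0.31 for Socs3. With mouse number as a replicate block it was -0.20 for Socs3, and the paired fit changed no other direction or call of the members. The cause was not tested.

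With each mouse left out in turn, the colon log2FC ran from -12.11 to 0.23 for Il6, -5.23 to 1.30 for Il11, -3.36 to 2.05 for Osm and -1.27 to 0.23 for Lif, and the blood log2FC from -0.38 to 0.061 for Il6ra, -1.41 to 1.14 for Osm, -0.57 to 0.76 for Stat3 and -1.13 to 1.32 for Socs3. Colon against blood it ran from -1.78 to 6.50 for Il6 and -0.024 to 0.52 for Stat3, and 5 to 6 members were called. The interaction ran from -10.24 to 6.32 for Il6, -5.26 to 1.30 for Il11, -0.53 to 0.23 for Il11ra1, -2.67 to 1.39 for Osm, -6.67 to 2.68 for Osmr, -1.28 to 0.22 for Lif and -0.999 to 0.084 for Stat3. Depth limits Il6 and Osmr in the blood and Il6 in 3 colon libraries, and 3 libraries a group limit every comparison of labels.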
